A study of Mus musculus with 4 samples.

Results

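Cells carrying platelet and megakaryocyte transcripts were examined in 2 single-cell libraries of mouse bone and bone marrow. A barcode was a member when it held at least 1 unique molecular identifier (UMI, a tag that counts each captured RNA molecule once) of at least 3 of 5 genes, Pf4, Itga2b, Ppbp, Gp9 and Gp1bb. Barcodes with under 200 genes or over 20% mitochondrial UMIs were left out. This rule found 84 members among 10063 kept cells of the young library (0.835%, 95% exact interval 0.666 to 1.03) and 64 among 5607 of the old library (1.14%, 0.880 to 1.46), 148 of 15670 in all. Intervals given here cover counting error only. The 5 genes chose the members, so their levels in members are a description and were not tested.

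The libraries came from a study of CD24+ cells in skeletal aging, in which transcripts and CD24 surface protein were read from the same cells (CITE-seq). The mice were untreated INK-ATTAC animals, which carry an inducible caspase 8 behind a fragment of the p16 promoter, and 1 mouse was sampled at 6 months (young) and 1 at 24 months (old). Liberase-released marrow cells and collagenase-released bone cells were lysed for red cells, depleted with beads against CD5, CD45R/B220, CD11b, Gr-1, 7-4 and Ter-119, and sorted as SYTOX-negative CD45- cells. That sort selects against most blood cells, so the share of members describes the sorted cells and not the marrow, and with 1 mouse per age a difference between ages cannot be told apart from a difference between animals or libraries.

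Megakaryocytes are large polyploid marrow cells that shed platelets into the blood. Platelets have no nucleus, but carry megakaryocyte RNA, mitochondria, surface receptors for the vessel wall and granules filled with chemokines and clotting proteins. The 5 marker genes stand for these parts. Pf4 and Ppbp encode alpha-granule chemokines, Itga2b the alpha chain of the fibrinogen receptor, and Gp9 and Gp1bb subunits of the von Willebrand factor receptor, the glycoprotein Ib-IX-V complex.

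Total depth was 82675434 RNA UMIs over 11371 young barcodes and 68580402 over 6729 old barcodes. Members held 1348534 and 1300597 RNA UMIs, 1.66% and 1.95% of those in kept cells, with a median of 10989.5 UMIs per young member and 11433 per old member against 6362 and 9688 in the other kept cells. A further 1 young barcode met the marker rule and was removed by the filter, with 64.0% mitochondrial UMIs. The libraries shared 25 barcodes, none of them a member in both.

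The promoters of 3 of the marker genes are shown because the members were defined by them, 1 for each kind of protein (RefSeq, GRCm38.p6, 250 bases before the gene start and 50 after, 5′ to 3′ on the gene's strand). Capitals mark matches on either strand to AGATAA or TGATAA, the letters of GATA-type sites, and to GGAA, the core of ETS-type sites, and adjacent matches can touch.
Pf4, chr5:90772185-90772484, plus strand: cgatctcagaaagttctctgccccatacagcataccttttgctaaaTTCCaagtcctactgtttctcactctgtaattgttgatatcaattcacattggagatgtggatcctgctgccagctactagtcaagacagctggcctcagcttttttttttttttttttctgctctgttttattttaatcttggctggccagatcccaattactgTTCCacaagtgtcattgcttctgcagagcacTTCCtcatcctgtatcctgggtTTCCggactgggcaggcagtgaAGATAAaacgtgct
Itga2b, chr11:102469834-102470133, minus strand: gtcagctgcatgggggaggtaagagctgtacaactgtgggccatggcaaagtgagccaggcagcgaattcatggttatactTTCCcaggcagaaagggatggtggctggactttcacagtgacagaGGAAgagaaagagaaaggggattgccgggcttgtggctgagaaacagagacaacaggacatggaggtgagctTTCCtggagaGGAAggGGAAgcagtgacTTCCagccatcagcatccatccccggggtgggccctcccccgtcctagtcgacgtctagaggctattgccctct
Gp9, chr6:87777820-87778119, plus strand: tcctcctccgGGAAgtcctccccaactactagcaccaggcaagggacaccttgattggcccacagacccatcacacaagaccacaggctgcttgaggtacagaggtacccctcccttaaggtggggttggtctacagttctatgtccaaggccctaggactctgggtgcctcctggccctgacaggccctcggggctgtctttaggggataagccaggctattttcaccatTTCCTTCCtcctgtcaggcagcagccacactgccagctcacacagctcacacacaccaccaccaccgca
The Pf4 window held 1 AGATAA and 4 GGAA matches, the Itga2b window 6 GGAA matches and the Gp9 window 3. The Ppbp and Gp1bb windows, not shown, held 4 and 5 GGAA matches. Of the 5 marker genes only Pf4 had an AGATAA match, and none had TGATAA. Of the listed genes that were raised in members and had a promoter in the table (60 of 71), 16 held AGATAA or TGATAA (26.7%), against 21.0% of all 27025 genes with a promoter. GGAA was in 59 of these 60, but 96.5% of all genes had it. These matches are letters in a window and not measured sites.

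Members differed in how much of their RNA came from the 5 genes. In 71 young members and 54 old members these genes made up at least 1% of all UMIs, a limit chosen after the values were seen, and these are called marker-rich here. Their share ran from 1.71% to 10.8% in the young library with a median of 4.67%, and from 1.05% to 9.56% in the old library with a median of 4.74%. The other 13 young and 10 old members, called marker-poor, had 0.0222% to 0.520% and 0.0111% to 0.785%. In the old library the limit lay between members at 0.785% and 1.05%, a narrower step than some on either side of it. Marker-rich members were 0.706% of kept young cells (interval 0.551 to 0.889) and 0.963% of kept old cells (0.724 to 1.25). These intervals leave out the spread between mice, and the shares were not tested against each other.

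**Figure D1:**
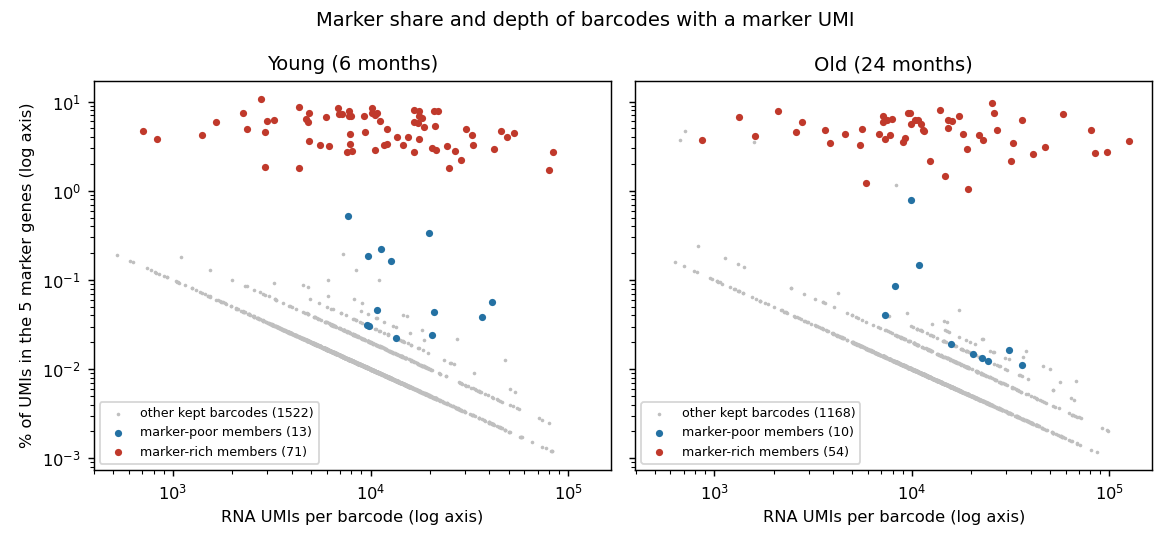
Percent of RNA UMIs in the 5 marker genes (log axis) against RNA UMIs per barcode (log axis) for kept barcodes with at least 1 marker UMI, 1 point per barcode. The 71 young and 54 old marker-rich members lie at or above 1%, as do 4 old barcodes outside the rule, and the marker-poor members lie between 0.0111% and 0.785%.

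The number of marker genes followed this split in part. All 5 genes were found in 51 young and 49 old members, 4 genes in 25 and 4, and 3 genes in 8 and 11. Marker-rich were 50 of the 51 and all 49 with 5 genes, 20 of the 25 and all 4 with 4 genes, and 1 member with 3 genes in each library. Members with all 5 genes held a median of 626 (young) and 640 (old) marker UMIs. Just inside the rule, members with 3 genes held a median of 11.5 and 4 marker UMIs. Just outside it, the 127 young and 118 old barcodes with 2 genes held a median of 2 in each library. Among old barcodes outside the rule 4 reached 1% of UMIs, with 25 to 96 marker UMIs of 1 or 2 of the genes and 673 to 8338 RNA UMIs, and no young barcode did.

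Pf4 was found in every member. Its UMIs summed to 34441 (young) and 34328 (old), or 25540 and 26394 CPM, the standard scaling of a gene's UMIs by the summed UMIs of all genes. In single members the middle range of Pf4 (lower quartile, median and upper quartile) was 14333, 29084 and 41396 CPM in the young library and 16548, 29253 and 36912 CPM in the old. Ppbp summed to 8610 CPM and 8770 CPM. Its quartiles were wider, at 2934, 9712 and 21836 CPM and 2734, 9502 and 18702 CPM. Gp9 summed to 1600 and 1416 CPM and Gp1bb to 601 and 735 CPM. Itga2b summed to only 248 and 299 CPM and was found in 63 of 84 and 55 of 64 members. The 2 libraries therefore gave nearly equal sums for Pf4 and Ppbp.

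In the other kept cells Pf4 stood at 7.46 CPM (young) and 9.65 CPM (old), with a UMI in 4.94% and 7.20% of cells. Young cells outside the members with markers of other lineages had like levels, 3.74 CPM in young B lineage cells (9 UMIs), 5.39 CPM in erythroid, 6.84 CPM in marrow stroma and 8.62 CPM in fibroblast cells. Itga2b differed from this. It stood at 28.8 CPM in fibroblast-marker cells of both libraries, with a UMI in 20.9% of 2935 young and 27.4% of 1425 old such cells, against 0.415 CPM and 0.256% of 391 young B lineage cells. Their median depths were 8119, 13070 and 4855 UMIs. Progenitor-marker cells, with median depths of 30996 and 30707 UMIs, had an Itga2b UMI in 21.2% of 33 young and 23.8% of 21 old cells. Itga2b stood at 8.10 and 7.70 CPM in them. Fibroblast-marker cells held 782 of the 1025 young Itga2b UMIs outside the members (76.3%) and 581 of 793 old ones (73.3%). Itga2b was thus the most frequent marker gene of barcodes outside the rule, 52.0% (young) and 44.5% (old) of their marker UMIs, but 0.677% and 0.795% of the marker UMIs of members.

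The next question was which further parts of the platelet programme the members carried. For each gene the summed CPM of members was divided by that of all other kept cells of the same library after adding 5 CPM to each, so ratios of low genes are understated, and a gene was called raised where the log2 ratio was at least 1 in both libraries and lower where it was at most -1 in both. In single libraries 5.23% of genes (young) and 5.92% (old) reached a log2 ratio of 1. Of 15618 genes with at least 20 UMIs in both libraries, 747 were raised (4.78%) and 2561 were lower (16.4%). Of the 127 genes in 12 lists of platelet and megakaryocyte roles, 124 could be compared, and 71 were raised, 17 were lower and 36 were neither. Without the 5 marker genes the raised count was 66 of 119. The median log2 ratio of those 119 genes was 1.5 (young) and 1.55 (old), beside -0.32 and -0.30 over all genes compared. With 1 mouse per age no test was made of these ratios.

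**Figure D2:**
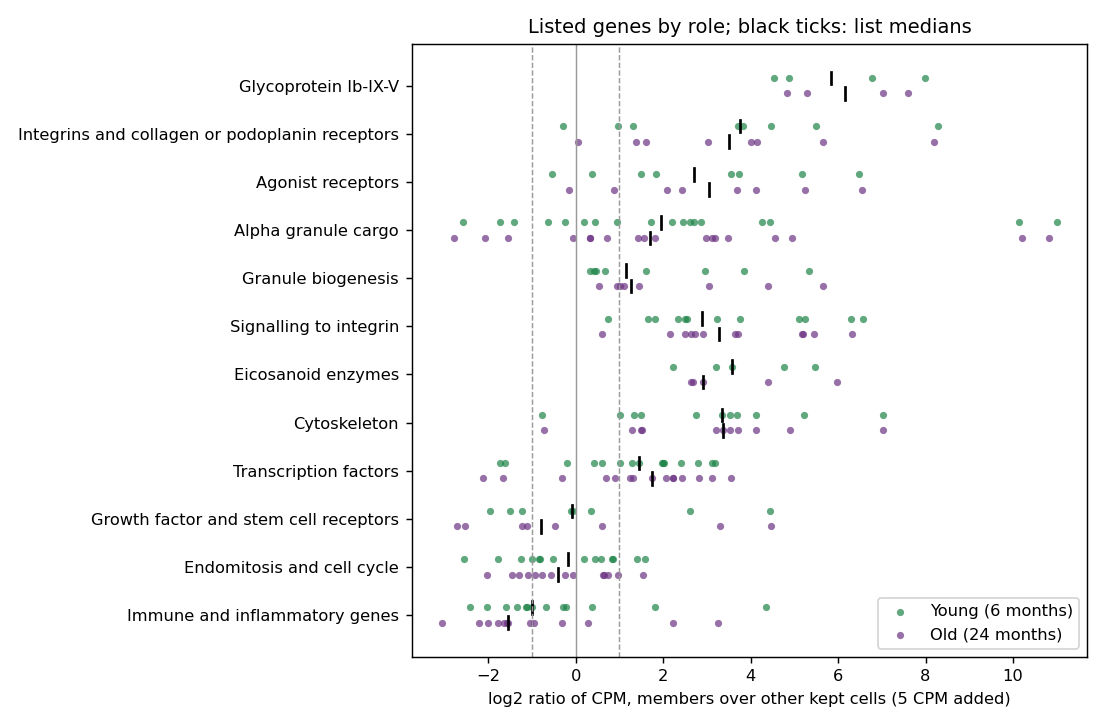
Log2 ratio of summed CPM in members over other kept cells (5 CPM added) for the 124 listed genes compared, by role, 1 point per gene and library, with black ticks at list medians and dashed lines at -1 and 1. All 4 genes of the glycoprotein Ib-IX-V complex lie at 4.54 or above, whereas the immune and inflammatory list has medians at or below -1.

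All 4 genes of the von Willebrand factor receptor were raised. Besides the rule's Gp9 (log2 ratio 7.99 young, 7.60 old) and Gp1bb (6.79, 7.04), Gp1ba, the chain that binds von Willebrand factor, reached 117 CPM and 147 CPM against 0.26 and 0.31 CPM in other cells. Gp5 reached 229 and 273 CPM against 3.00 and 2.13 CPM. Of the integrins and the collagen and podoplanin receptors, 6 of 8 were raised, 1 of them the rule's Itga2b. Clec1b, the podoplanin receptor, stood at 1733 and 1573 CPM against 0.59 and 0.40 CPM (log2 8.28 and 8.19), close to the level of the marker genes although the rule did not use it. Gp6, the collagen receptor, stood at 221 and 251 CPM against 0.04 and 0.09 CPM. Its signalling partner Fcer1g had log2 ratios of 4.46 and 3.03, and Itgb3, the beta chain that pairs with Itga2b, 3.71 and 4.00. The broadly expressed integrin Itgb1 was neither raised nor lower (-0.29, 0.06).

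Receptors for soluble agonists were raised in 6 of 8 cases. The thrombin receptor genes F2rl2 and F2rl3 had log2 ratios of 6.47 and 6.54, and of 3.55 and 4.13. P2rx1, an ATP-gated channel, had 5.17 and 5.25, the thromboxane receptor Tbxa2r 3.74 and 3.68, and the ADP receptor P2ry1 1.85 and 2.43. P2ry12, the other ADP receptor of platelets, had only 9 and 2 UMIs in members and was under the minimum. The prostacyclin receptor Ptgir (0.37, 0.87) and the adrenergic receptor Adra2a (-0.53, -0.16) were neither raised nor lower.

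Alpha-granule cargo was mixed, with 10 of 18 genes raised, the rule's Pf4 and Ppbp among them, and 3 lower. Besides Pf4 and Ppbp, the adhesion receptor Selp (4.45, 4.96), the factor V-binding protein Mmrn1 (4.25, 4.56), Vwf (2.70, 3.18), the growth factor Pdgfb (2.62, 3.47), Tgfb1 (2.87, 3.12) and coagulation factor V, F5 (2.46, 2.98), were raised. Sparc was lower (-2.59, -2.77), as were Pdgfa (-1.73, -2.07) and Vegfa (-1.40, -1.55). Mesenchymal cells also make all 3, and the part of this in the ratios was not tested. The other cells held 5874 and 7031 CPM of Sparc. Marker-poor members held 904 of the 1313 young and 1237 of the 1332 old Sparc UMIs of members. In marker-rich members the Sparc ratios were -4.00 and -6.28. Thbs1 was at 139 and 198 CPM in members and at 121 and 158 CPM in other cells. Egf had 0 UMIs in young and 1 UMI in old members. For making granules, 4 of 8 genes were raised, among them Rab27b, a Rab protein of granule transport (5.34, 5.66), and Slc35d3 of dense granules (3.85, 4.40). Nbeal2, needed for alpha granules, had only 4 and 11 UMIs.

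The machinery that turns on the fibrinogen receptor was raised in 11 of 12 genes. Bin2 (6.58, 6.31), Plek, the main protein kinase C substrate of platelets (6.30, 5.18), Rasgrp2, which activates Rap1 (5.25, 5.44), the integrin activator Fermt3 (5.11, 5.20) and Rap1b itself (3.75, 3.70) led it, and Mgll was the exception (0.75, 0.59). All 5 eicosanoid genes were raised, with Alox12, the platelet 12-lipoxygenase, at 5.48 and 5.97 and Tbxas1, thromboxane synthase, at 4.76 and 4.39. Of 11 cytoskeletal and surface genes 10 were raised. Treml1, a receptor stored in platelet granules, was highest at 7.03 and 7.02. Tmsb4x, an actin-sequestering peptide, took 38769 and 37037 CPM of the RNA of members against 2992 and 3189 CPM elsewhere. Tubb1, the platelet beta-tubulin, had 71 and 79 UMIs in members while only 0.01 and 0.02 CPM were found elsewhere. Dnm3 was not raised (-0.77, -0.74).

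Transcription factors were raised in 10 of 15 cases, but by less. Fli1 (3.20, 3.56), Nfe2 (3.11, 2.81), Lyl1 (2.80, 3.12) and Gata1 (2.41, 2.43), regulators of megakaryocyte maturation, led them. Runx1 (-1.61, -1.67) and Ets1 (-1.72, -2.13) were lower, with Runx1 at 472 and 405 CPM in the other cells. Among growth factor and stem cell receptor genes, Slamf1, a surface receptor of blood stem cells and megakaryocytes, was raised (2.61, 3.30). Kit (-1.97, -2.72), Cd34 (-1.49, -2.54) and Ptprc, which encodes the CD45 antigen of the sort (-1.22, -1.11), were lower. Ptprc had 7 UMIs in young and 20 UMIs in old members.

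Outside the lists, the 10 genes with the largest ratios in both libraries were Tesc, Lat, Nrgn, Rgs18, Ctla2a, F10, Ctla2b, Rbpms2, Cavin2 and Tmem40. Tesc had log2 ratios of 6.66 and 6.28 and the adaptor Lat of 6.1 and 6.33. The calmodulin-binding neurogranin gene Nrgn had 5.93 and 6.23, and Rgs18, a G-protein regulator of platelets, 5.90 and 6.60. Coagulation factor X, F10, stood at 319 and 308 CPM against 0.43 and 0.78 CPM. Ctla2a and Ctla2b are related gene copies. How reads that match both were counted was not tested, so their separate values are uncertain.

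The immune and inflammatory list was lower more often than raised, 6 against 2 of 13 genes. Il1a, an inflammatory cytokine, was raised, with 134 UMIs in young and 60 UMIs in old members (99.4 and 46.1 CPM) against 0.09 and 0.32 CPM in other cells. Mif was the other raised gene (1.82, 2.22). Il1b was not (-0.68, -1.65). The class I genes H2-K1 (-1.59, -2.01) and H2-D1 (-1.12, -1.57) and the stromal chemokine Cxcl12 (-2.41, -3.05) were lower, while B2m, the light chain of class I, was neither (-0.29, -0.31). Cdkn2a, the p16 gene, had 6 UMIs from 1 young member and 4 UMIs from 2 old members, and the young ones were all in a marker-poor member.

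Marker-rich members stood apart in 2 measures that the choice by marker genes did not use. Malat1, a long noncoding RNA kept in the nucleus, made up 3.94% of summed UMIs in other young cells and 3.67% in other old cells. In marker-rich members it made up 0.320% and 0.204%, with medians per member of 0.0124% and 0.0146%, and 20 young and 10 old marker-rich members held no Malat1 UMI at all. The deepest young member held 4 Malat1 UMIs among 83518 and the deepest old one 6 among 125461, while the next deepest young member held 171 among 79974 (0.214%), with 0.900% mitochondrial UMIs. Mitochondrially encoded transcripts had medians of 0.0330% and 0.0982% in marker-rich members against 2.78% and 2.61% in other cells. Both were low together, Malat1 under 0.2% and mitochondrial UMIs under 0.5%, in 55 of 71 (77.5%) and 39 of 54 (72.2%) marker-rich members, in 0 marker-poor members and in 57 of 9979 (0.571%) and 46 of 5543 (0.830%) other cells.

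**Figure D3:**
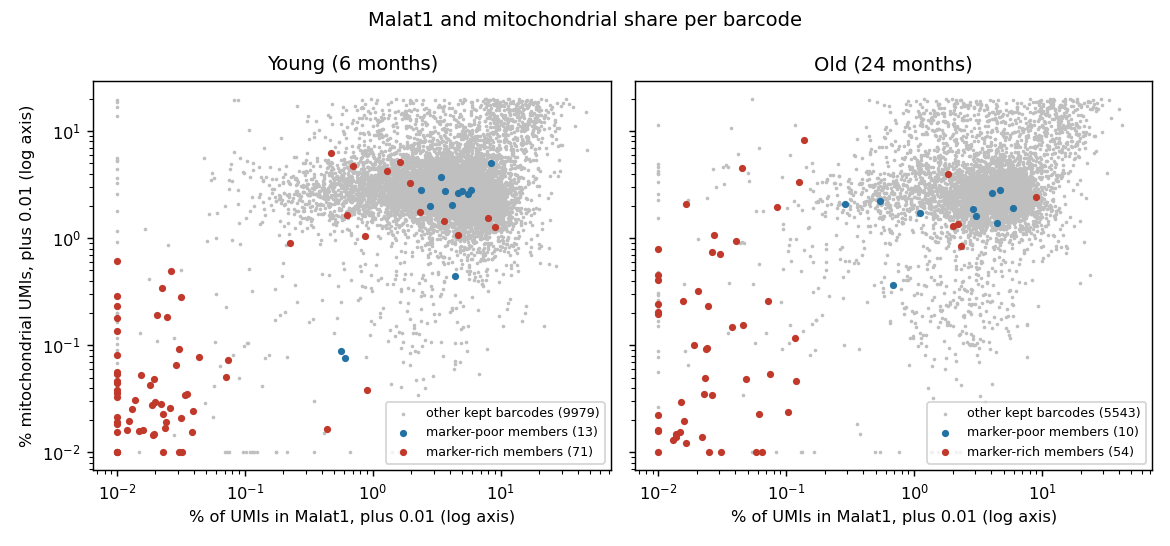
Percent of mitochondrial UMIs against percent of UMIs in Malat1, each plus 0.01 on log axes, 1 point per kept barcode. Most marker-rich members lie at the lower left, whereas 15 young and 5 old ones with Malat1 of at least 0.2% and nearly all marker-poor members lie within the cloud of other cells or beside it.

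The low mitochondrial share was not shared by nuclear genes of the same complexes. All 13 mitochondrially encoded genes were lower in members (median log2 ratio -2.28 young, -2.36 old). Of 92 nuclear genes of the respiratory chain and ATP synthase, 77 were above 0 in both libraries and 17 were raised (medians 0.63 and 0.64), and they made up 3.68% and 3.54% of UMIs in marker-rich members against 2.03% and 1.92% in other cells. Other nuclear-retained RNAs were at low levels beside Malat1. Neat1 had 42 and 36 UMIs in marker-rich members (37.3 and 32.3 CPM against 411 and 424 CPM in other cells), and Kcnq1ot1 had 41 and 2 UMIs (36.5 and 1.80 CPM against 222 and 174 CPM). Marker-rich members had medians of 10566 (young) and 11242.5 (old) UMIs per cell against 6362 and 9688 in other cells. Their median gene counts were 2334 and 2660 against 2376 and 3117. The part of cell damage in the low Malat1 and mitochondrial shares was not tested.

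Marker-rich members with Malat1 of at least 0.2% (15 young and 5 old, a limit chosen after the values were seen) had lower marker shares, with medians of 2.86% and 1.45% against 5.45% and 4.81% in the 56 and 49 with less Malat1. They had mitochondrial medians of 1.53% and 1.34%. Markers of another lineage, at least 3 of the 5 genes of any of 13 lists, were found in 5 of these 15 and 5 of these 5, and in 0 of 56 and 5 of 49 of the members with less Malat1. Among marker-poor members 12 of 13 young and 8 of 10 old ones carried such markers.

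Over all members this came to 17 of 84 (20.2%, interval 12.3 to 30.4) and 18 of 64 (28.1%, 17.6 to 40.8), against 82.1% and 87.8% of other cells. When every cell was thinned to 2000 UMIs, leaving out 4 young and 3 old members as too shallow, the counts were 9 of 80 (11.3%) and 10 of 61 (16.4%), and 70.3% and 73.7% of other cells. Marrow stroma markers were found in 10 young and 10 old members, fibroblast markers in 13 and 6, osteoblast markers in 4 and 1, erythroid markers in 2 and 1, and neutrophil and endothelial markers in 1 old member each, the latter being the deepest member. No member held the B lineage, macrophage, T or NK, progenitor, basophil or mast, chondrocyte or pericyte lists at this limit. The summed marrow stroma genes were at 389 and 712 CPM in marker-rich members, 6888 and 3275 CPM in marker-poor members and 8244 and 8514 CPM in other cells. A doublet caller marked 4 of 71 and 3 of 54 marker-rich members and 2 of 13 and 0 of 10 marker-poor ones. Whether droplets holding a stromal cell and a platelet gave the mixed barcodes was not tested.

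Marker-rich members differed among themselves along the share of ribosomal protein transcripts, which ran from 2.19% to 30.7% of UMIs in young cells and from 0.577% to 26.3% in old ones. The number of Ppbp UMIs per Pf4 UMI was lower where this share was higher. In members with under 10% ribosomal UMIs (14 young, 14 old) its median was 0.756 and 0.707. With 10% to 20% (40 and 24 members) it was 0.419 and 0.460, and above 20% (17 and 16 members) 0.147 and 0.156. Across marker-rich members Spearman's rho was -0.82 in 71 young and -0.83 in 54 old ones (Pearson's r -0.71 and -0.73), given as a description since cells of 1 library share their source. The Pf4 CPM itself had a rho of -0.05 and 0.11 with the ribosomal share. Depth moved with it, with medians of 5398, 10529 and 16560 UMIs (young) and 6495, 10921 and 29367 UMIs (old), and its part in the ratio was not tested.

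**Figure D4:**
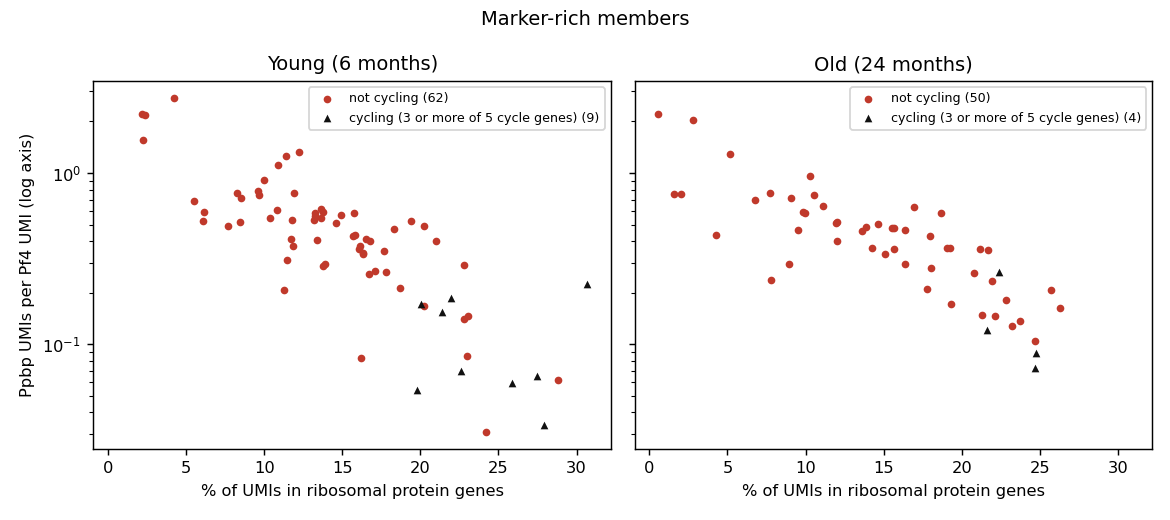
Ppbp UMIs per Pf4 UMI (log axis) against the percent of UMIs in ribosomal protein genes, 1 point per marker-rich member, with triangles for members with at least 3 of 5 cycle genes. The median ratio is 0.756 and 0.707 below 10% ribosomal UMIs and 0.147 and 0.156 above 20%, where 8 of the 9 young and all 4 old cycling members lie.

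Genes of the role lists sat more often at the low than at the high ribosomal end. Summed over members under 10% and over 20%, with limits chosen after the values were seen, 27 of 85 listed genes outside the rule with at least 100 UMIs were higher by a log2 ratio of at least 1 in both libraries and 7 were lower, beside 8.18% higher and 17.5% lower over 2605 genes outside the ribosomal protein genes. Tubb1 stood at 256 CPM under 10% and at 73.3 and 8.45 CPM in the middle and upper ranges of the young library, and at 325, 91.6 and 18.7 CPM in the old. F13a1, a subunit of the clot-linking transglutaminase, stood at 114 CPM under 10% and 4.22 CPM above 20% in the young library (12 and 2 UMIs), and at 187 and 25.0 CPM in the old (19 and 16 UMIs). Thbs1, neither raised nor lower over all members, stood at 683 and 67.6 CPM (young) and 709 and 125 CPM (old). Clec1b, Gp9, Gp6, Gp1ba, Parvb and Alox12 were also lower at the upper end, and Clec1b stood at 5419 and 895 CPM (young) and 3731 and 861 CPM (old). Pf4 stayed within 0.54 on the log2 scale. Higher at the upper end were Slc35d3 (9.49 and 112 CPM young, 49.2 and 162 CPM old, on 1 and 5 UMIs at the low end) and the cycle genes Cdk1 and Top2a.

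Members were called cycling with a UMI of at least 3 of Ccnb1, Cdk1, Aurkb, Mki67 and Top2a, a set chosen after the values were seen. There were 10 in the young library (11.9% of members, 9 of them marker-rich) and 5 in the old (7.81%, 4 marker-rich). Of the other kept cells 6.52% (young) and 7.63% (old) met the same rule. Of the listed cycle genes outside that set, only Plk1 and Mcm5 were counted this way. The cycling members held 29 of 32 young and 14 of 15 old UMIs of Plk1, a mitotic kinase. They also held 18 of 31 and 18 of 30 UMIs of Mcm5, a replication factor. The marker-rich cycling members were deep, with a median of 21423 and 37078 UMIs. Of the RNA UMIs of all members they held 321722 of 1348534 (young) and 175563 of 1300597 (old). The rule asks for raw UMIs of 3 genes, so it favours deep cells. Ppbp stood at 2785 and 3623 CPM in them against 13298 and 11449 CPM in the other marker-rich members. Their Pf4 stood at 26616 and 26492 CPM against 32058 and 31535 CPM, and the part of depth in these values was not tested. Their Malat1 medians were 0.0140% and 0.00472%. Over all members the cycle list was neither high nor low (medians -0.17 and -0.40), with the D-type cyclin Ccnd3 its 1 raised gene (1.58, 1.55), and Mki67 (-1.77, -1.29), Cdkn1a (-2.54, -2.03) and Ccne1 (-1.25, -1.45) lower.

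CD24 antibody counts were low in marker-rich members. The median was 54 antibody UMIs in young and 45.5 in old marker-rich members, against 93 and 96 in other cells. It was 87 and 88 in marrow stroma cells, 78 and 81 in fibroblast cells and 79.5 and 93 in neutrophil cells. Erythroid cells had 3199 and 4864 and B lineage cells 2396 and 2098. Per 1000 RNA UMIs the medians were 5.18 and 4.89 in marker-rich members against 15.6 and 11.4 in other cells. On this scale fibroblast cells were nearer, at 9.91 and 6.68, and marrow stroma cells stood at 15.2 and 10.3. The ranges were 9 to 243 in young marker-rich members and 25 to 5566 in old ones, and the 5566 belonged to a single member with 8.24% mitochondrial UMIs. Cd24a mRNA, which encodes CD24, had 9 and 2 UMIs in marker-rich members (8.0 and 1.80 CPM) against 117 and 172 CPM in other cells. Marker-poor members had medians of 146 and 124.5, and 3 young ones (2152, 3390 and 3644) and 1 old one (3822) exceeded 1000. Of these 4, 3 also held the erythroid list.

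**Figure D5:**
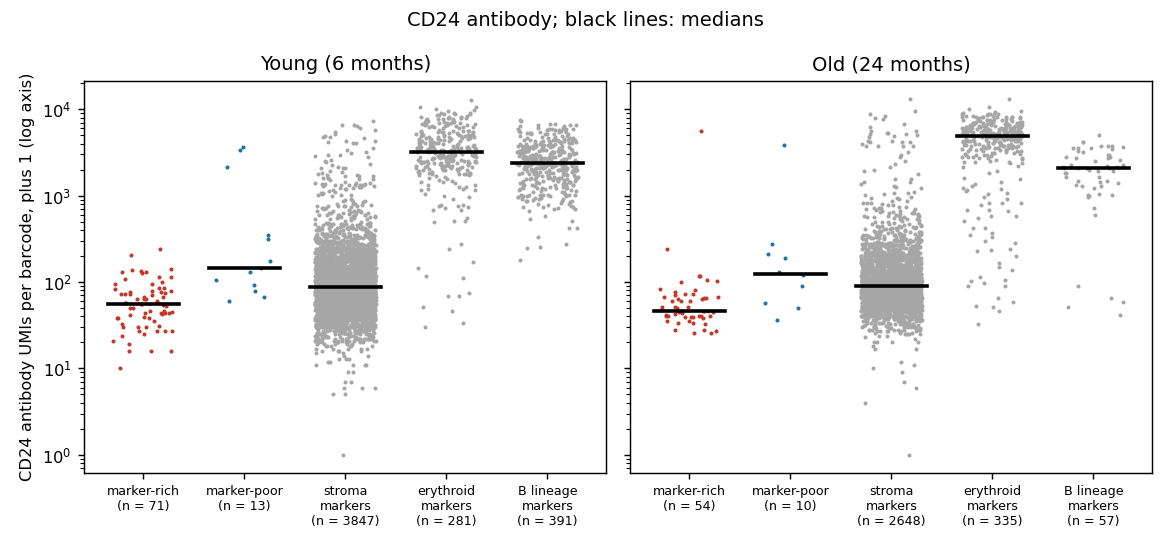
CD24 antibody UMIs per barcode plus 1 (log axis) in marker-rich and marker-poor members and in other kept cells with stroma, erythroid or B lineage markers, 1 point per barcode, black lines at medians. Marker-rich members sit at medians of 54 and 45.5, below the stroma medians of 87 and 88 and far below erythroid and B lineage cells.

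Between the ages the members differed in few genes. Of 7952 genes with at least 20 UMIs in members, 140 were higher in old members by a log2 ratio of at least 1 (1.76%) and 148 lower by as much (1.86%). Of the 127 listed genes, 1 was higher and 2 were lower among those that met this minimum. Counts this small are not read as a difference from the shares over all genes. Listed genes under the minimum, such as Kit with 5 young UMIs and 1 old UMI, could not be called. F5 had 57 young and 118 old UMIs (42.3 and 90.7 CPM, log2 1.02, counting interval of the UMI ratio 0.63 to 1.58), and 1.02 in marker-rich members. In the other cells F5 stood at 3.59 and 7.09 CPM (log2 0.49 with 5 CPM added). Il1a had 134 and 60 UMIs (log2 -1.03, interval -1.57 to -0.66), and -1.07 in marker-rich members. Cd34 had 104 and 30 UMIs (log2 -1.55), but 66 of the young ones lay in marker-poor members, and in marker-rich members it was -0.76. The median of the listed genes, with those under the minimum included, was 0.19, beside 0.04 over all genes compared. Pf4, Ppbp, Clec1b and Treml1 were within 0.14 of 0. Neither mouse had a replicate, so none of these differences has a check beyond counting error.

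By the rule for named genes, those most above 0 were S100a8, S100a9, Atad2, Ubr7, Csrp2, Ubr1, Hist1h1e, Homer2, Serpina3g and AI504432. S100a8 (7.08) and S100a9 (6.39), neutrophil genes, rested on a single marker-poor old member that held 1242 of 1262 and 1737 of 1754 of the UMIs. Without it the log2 ratios were 1.5 and 0.17. Single old members also held 34 of 66 Atad2, 58 of 129 Csrp2 and 18 of 40 Ubr1 UMIs, and Csrp2 went from 1.62 to 0.67 in marker-rich members. Homer2, a scaffold protein, had 33 young and 99 old UMIs (1.46, and 1.46 in marker-rich members) and -0.14 in other cells, and Ubr7 had 15 and 60 UMIs (1.67, 1.64 and 0.01). Those most below 0 were Gm8797, S100a4, Spp1, Rgcc, Prg4, Gm47283, Crip2, Ly6a, Igfbp6 and Gas1. Gm8797 (-3.79) and Gm47283 (-1.86) differed as much between the other cells of the libraries (-3.58 and -2.07). Spp1 (-1.97), S100a4 (-2.20) and Igfbp6 (-1.74) each stood higher in other cells than in members, and had -1.91, -2.68 and -2.35 in marker-rich members. These rested on few cells, with a UMI of Spp1 in 28 young and 16 old marker-rich members, of S100a4 in 10 and 6 and of Igfbp6 in 9 and 5. Rgcc (-1.93) and Gas1 (-1.59) had -0.63 and -0.30 there. Prg4 (-1.91) turned to 2.89 in marker-rich members, and 77.5% of its young and 81.2% of its old UMIs lay in 1 member of each library.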

How the data were processed

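CITE-seq libraries of CD45- bone and marrow cells from 1 young and 1 old INK-ATTAC mouse were used. The deposited values are raw counts, whole UMIs per gene and barcode for 32285 genes and 1 CD24 antibody, written by Cell Ranger 6.1.1 per the file headers. The submitters' processing notes name Cell Ranger, Seurat 4.0, R 4.0.3 and mm10. Only called barcodes are in the matrices, and no normalization had been applied by the authors. The members and gene lists were chosen with earlier results of these data known.

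Barcodes with at least 200 genes and at most 20% mitochondrial UMIs were kept, and members were taken by the marker rule. UMIs were summed per library over members and over the other kept cells, divided by the sum to CPM, and compared as log2 ratios with 5 CPM added, called at 1 or -1, over genes with at least 20 UMIs. Named genes were those of the 12 role lists, 1 listed symbol being absent, plus the 10 outside them with the largest smaller ratio of the libraries (UMI in at least 20% of members of each), and the 10 most different between ages in each direction (at least 50 UMIs, and a UMI in at least 20% of members of the higher library). Cells are not replicates, so no p-value was computed. Shares have exact Clopper-Pearson and sums exact Poisson intervals at 95%. Doublets were called with Scrublet (scanpy 1.11.5, seed 1) and kept. Sums and folds were tested on simulated data. Promoters are from RefSeq GRCm38.p6. Python 3.11.15, NumPy 2.4.6, SciPy 1.17.1 and pandas 2.3.3 were used. Some listed genes are counted but not reported by name here.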

Additional observations from a re-analysis of the deposited data

How the results depend on the processing

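No paired analysis was possible because each age had 1 mouse, and leaving out a replicate would leave a group empty. The counts and shares of members, their share with markers of another lineage, their median antibody count and the counts of genes were recomputed under other settings, and 91 such values stayed within counting error or within 1.5 times the reported count while 25 did not. The Malat1, mitochondrial, ribosomal and cycling values were not recomputed. Asking for 2 of the 5 marker genes gave 211 young and 182 old members (2.10% and 3.25% of kept cells), 55.0% and 62.1% of them with markers of another lineage, median antibody counts of 83 and 75, 346 genes raised, 455 lower and 43 lower in old members. Asking for 4 marker genes gave 17.0% of old members with such markers, and 78 genes higher and 346 lower in old members. Thinned to 2000 UMIs before the marker rule, 1.54% of young and 5.88% of old members had markers of another lineage. In marker-rich members, a setting chosen after seeing the data, it was 7.04% in the young library. With 1 CPM added 4607 genes were lower in members, 283 higher and 258 lower in old members, and with 20 CPM added 993, 36 and 53. The mean of per-cell CPM gave 345 genes higher in old members, and no filter on low counts gave 230 lower. Of the 71 listed genes raised, 71 remained under median-ratio scaling, 67 with per-cell means (not Etv6, Flna, Mef2c or Meis1) and 70 in marker-rich members (not F13a1). In marker-rich members 109 genes were higher and 123 lower in old members. Depth limits the low genes, since 1 UMI over all young members is 0.742 CPM.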
